A study of Rattus norvegicus with 12 samples.

Results

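The sterol sensing genes of the rat corpus luteum (CL) and the sterol carrier gene Stard4 were examined. The genes listed were Insig1, Insig2, Srebf1, Srebf2, Scap and Stard4, and a probe set was taken where the annotation of the array gave it 1 of these symbols alone. Of the 6 genes, 5 were measured in this way, among 14506 genes tested. Insig1 had 2 probe sets (10859880, called the first here, and 10861986), while Insig2 (10767175), Srebf2 (10898091), Scap (10913640) and Stard4 (10803681) had 1 each. The only probe set that carried the symbol of Srebf1 was shared with Pemt, so no value is given for Srebf1.

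CL RNA of pregnant Wistar rats was hybridised to 12 arrays, 1 animal on each. On day 16 of pregnancy there were 3 rats given an aromatase inhibitor (AI, anastrozole, 1 mg/kg orally each day) together with 17β-estradiol (AI+E2, 10 µg/day s.c.), 3 rats given AI alone and 3 rats given vehicle (VEH), each treated for 4 days from day 12. Day 12 was represented by 3 untreated rats, which differed from the VEH rats in the day of pregnancy and in the 4 days of vehicle. Aromatase makes E2 from androgens, so the comparisons asked how the luteal transcriptome differed when E2 synthesis was inhibited and when E2 was given back. Values are RMA values on a log2 scale, so a difference of 1 is a 2-fold difference in signal, and each difference is given as the first group minus the second. A gene was called when the adjusted p of limma (Benjamini-Hochberg over 14506 genes) was below 0.05. The p-values measure the spread between individual animals.

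Animal cells sense sterols in the membrane of the endoplasmic reticulum. Scap escorts the SREBP transcription factors, the products of Srebf1 and Srebf2, to the Golgi, where proteases release their active part. When sterols are plentiful the Insig proteins hold Scap and SREBP back in the endoplasmic reticulum. Insig1 is itself a well-known target of the SREBPs, SREBP2 (the product of Srebf2) acts mainly on genes of cholesterol synthesis and uptake, and Stard4 carries sterols through the cytosol. The CL uses cholesterol as the substrate for progesterone.

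Promoter sequences from RefSeq (rat assembly GRCr8) are shown for 3 of these genes, those that hold ATCACCCCA or CACGTG. SREBPs are known to recognise such letters. Insig2 and Srebf1 held neither, but both held the CCAAT box, which factors that bind beside SREBPs are known to recognise. Each run is the 250 bases before the annotated start, 5′ to 3′ on the strand of the gene. Capitals mark ATCACCCCA (sterol regulatory element core), CACGTG (an E-box) and the CCAAT box, which appears as ATTGG on the other strand. Insig1 lies at chr4:8057770-8058019 (minus strand), Srebf2 at chr7:115543057-115543306 (plus strand) and Scap at chr8:119184188-119184437 (plus strand).
Insig1: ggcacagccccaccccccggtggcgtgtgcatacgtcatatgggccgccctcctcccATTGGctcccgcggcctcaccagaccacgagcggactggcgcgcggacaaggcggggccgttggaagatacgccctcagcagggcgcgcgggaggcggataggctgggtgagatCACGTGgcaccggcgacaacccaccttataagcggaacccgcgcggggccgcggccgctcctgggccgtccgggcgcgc
Srebf2: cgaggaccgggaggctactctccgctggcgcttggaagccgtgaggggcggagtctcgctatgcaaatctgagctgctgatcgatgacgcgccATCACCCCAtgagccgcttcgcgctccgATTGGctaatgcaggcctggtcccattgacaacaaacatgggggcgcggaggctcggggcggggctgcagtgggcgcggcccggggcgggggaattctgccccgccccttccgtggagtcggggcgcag
Scap: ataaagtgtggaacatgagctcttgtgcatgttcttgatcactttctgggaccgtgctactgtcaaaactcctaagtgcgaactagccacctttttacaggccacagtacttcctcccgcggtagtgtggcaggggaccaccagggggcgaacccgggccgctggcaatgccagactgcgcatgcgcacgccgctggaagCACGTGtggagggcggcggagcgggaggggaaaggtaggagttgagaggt

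The motif letters were chosen after the sequences had been seen, and both strands were searched over windows of 250 bases before to 50 bases after each start. The core ATCACCCCA was found at positions -157 to -149 from the start of Srebf2, and in 0.245% of the 33469 promoters in the RefSeq table. CACGTG was found at positions -79 to -74 of Insig1 and -50 to -45 of Scap, and in 6.42% of the promoters. The CCAAT box was found on the reverse strand in Insig1, Srebf2, Insig2 and both Srebf1 windows, and is a frequent motif, present in 37.5% of the promoters. The GC box GGGCGG, which is not capitalised, was found in 5 of the 6 windows of these genes and in 33.1% of the promoters. No match overlapped a match of another motif. Of the 6 genes, 5 had an entry and Stard4 had none. In the 15 windows of the cholesterol synthesis enzymes listed below, ATCACCCCA was found in 0 and CACGTG in 1 (6.67%). The CCAAT box was found in 12 of those 15 (80%) and the GC box in 13 (86.7%). In the 11 windows of the fatty acid synthesis genes, ATCACCCCA was found in 0 and CACGTG in 1 (9.09%). There the CCAAT box and the GC box were found in 7 windows each (63.6%). These matches describe letters only, and binding was not measured.

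Insig1 encodes the sterol-sensitive anchor of the Scap and SREBP complex, and it had the largest differences among the measured genes in AI against VEH, AI+E2 against AI and VEH against Day 12. The first probe set read 10.58, 10.56 and 10.56 in AI+E2 CL, 12.01, 11.95 and 11.80 in AI CL, 9.94, 9.87 and 10.13 in VEH CL, and 11.61, 11.67 and 11.82 in Day 12 CL. The 3 AI arrays lay far above the 3 VEH arrays, the AI+E2 arrays lay between them, and the only groups that overlapped were AI and Day 12. The second probe set read 9.35, 9.28 and 9.49 in AI+E2 CL, 10.89, 10.98 and 10.69 in AI CL, 8.61, 8.35 and 8.67 in VEH CL, and 10.32, 10.28 and 10.47 in Day 12 CL. There the order of the groups was the same and no groups overlapped.

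Srebf2, the gene of the SREBP that acts on cholesterol synthesis, read 9.21, 9.17 and 9.21 in AI+E2 CL, 9.64, 9.63 and 9.57 in AI CL, 8.94, 8.92 and 8.87 in VEH CL, and 9.45, 9.37 and 9.53 in Day 12 CL. All 4 groups were apart, in the order AI, Day 12, AI+E2 and VEH from high to low. Scap, the gene of the SREBP escort, read 9.22, 9.18 and 9.17 in AI+E2 CL, 9.25, 9.19 and 9.19 in AI CL, 8.97, 8.997 and 8.90 in VEH CL, and 9.03, 9.15 and 9.23 in Day 12 CL. The VEH arrays were the lowest, apart from every other group, and the other 3 groups overlapped one another.

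Stard4, the sterol carrier, read 7.67, 7.57 and 7.81 in AI+E2 CL, 8.32, 8.24 and 7.96 in AI CL, 7.38, 7.42 and 7.56 in VEH CL, and 7.94, 7.85 and 7.89 in Day 12 CL. Its groups had the same order as those of Insig1 and Srebf2 and did not overlap, although some gaps were narrow. Insig2, the second Insig gene, read 7.56, 7.34 and 7.77 in AI+E2 CL, 7.81, 7.83 and 7.64 in AI CL, 7.81, 7.81 and 7.71 in VEH CL, and 7.78, 7.81 and 7.77 in Day 12 CL. All groups of Insig2 overlapped, and its AI+E2 arrays were the most spread (SD 0.22, against SD 0.10 in AI, 0.05 in VEH and 0.02 in Day 12, n = 3 each).

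**Figure D1:**
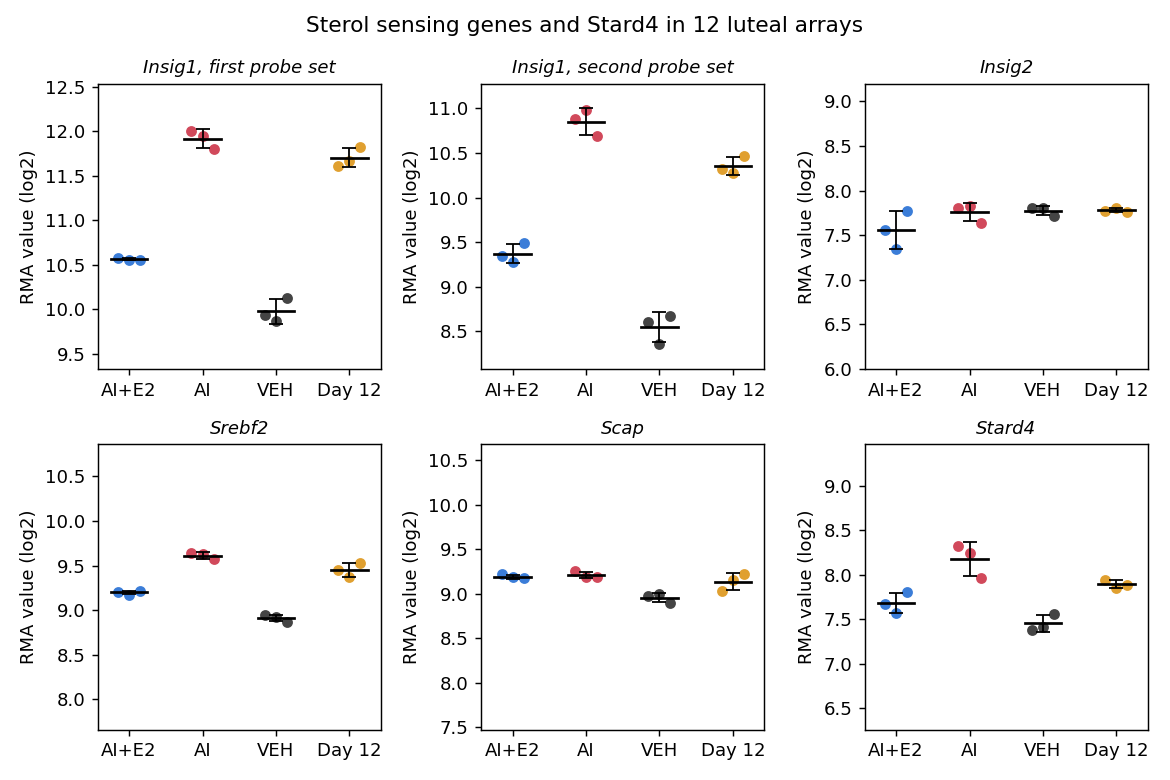
RMA values (log2) of 6 probe sets of the 5 measured genes, 1 point per animal in AI+E2, AI, VEH and Day 12 CL, with the mean (long bar) and SD (error bar, n = 3). Axes do not start at 0, and each panel has its own range. For Insig1, Srebf2 and Stard4 the AI group has the highest mean and the VEH points are the lowest, with 1 Day 12 point (11.82) above the lowest AI point (11.80) for the first Insig1 probe set, and for Insig2 the groups overlap.

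The question of AI against VEH was what inhibition of aromatase changed in the CL of day 16. Insig1, Srebf2, Stard4 and Scap were higher in AI CL, 4 of the 5 measured genes. Over all genes 16.9% were called and 5.91% were called as higher. Insig1 averaged 11.92 ± 0.11 in AI CL and 9.98 ± 0.14 in VEH CL (SD, n = 3 each), a difference of 1.94 ± 0.08 (SE) or 3.84-fold (adjusted p = 1.74e-10), and it stood at place 19 of 14506 genes ordered by fold change. Its second probe set differed by 2.31 (4.95-fold, adjusted p over all probe sets = 2.16e-08), and 10.8% of all probe sets were called. Insig1 alone among the 5 genes was called with a rise of at least 2-fold, as were 0.476% of all genes.

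Srebf2 averaged 9.61 ± 0.04 in AI CL and 8.91 ± 0.04 in VEH CL (SD, n = 3 each), a difference of 0.70 (1.63-fold, adjusted p = 3.67e-07). Stard4 averaged 8.17 ± 0.19 in AI CL and 7.45 ± 0.09 in VEH CL (SD, n = 3 each), a difference of 0.72 (1.65-fold, adjusted p = 2.96e-05). Scap differed by 0.25 (1.19-fold, adjusted p = 0.00781). Insig2 was not called, with a difference of -0.02 and a 95% interval from -0.21 to 0.17 (adjusted p = 0.924). In 4 of the 5 genes the AI arrays lay above the VEH arrays, and over all genes 14.3% were apart in this direction.

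AI+E2 against AI addressed what E2 changed while aromatase was inhibited. Insig1, Srebf2 and Stard4 were lower in AI+E2 CL, 3 of the 5 measured genes, while 12.8% of all genes were called and 4.13% were called as lower. Insig1 averaged 10.57 ± 0.01 in AI+E2 CL and 11.92 ± 0.11 in AI CL (SD, n = 3 each) and fell by 1.35 (2.55-fold, adjusted p = 1.95e-08), and its second probe set fell by 1.48 (adjusted p over all probe sets = 2.1e-06, with 7.11% of all probe sets called). A call with a fall of at least 2-fold was found in 0.303% of all genes. Srebf2 fell by 0.41 (1.33-fold, adjusted p = 0.00011) and Stard4 by 0.49 (1.4-fold, adjusted p = 0.00143). In each of the 3 genes all AI+E2 arrays lay below all AI arrays, as in 15% of all genes.

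Scap was not called between AI+E2 and AI, with a difference of -0.02 and an interval from -0.15 to 0.11 (adjusted p = 0.886). Insig2 differed by -0.20 with an interval from -0.39 to -0.01, which did not pass the adjustment (adjusted p = 0.17). That value depended on single animals in both directions, since the difference was -0.31 without AI+E2 replicate 3 (adjusted p = 0.0272) and -0.09 without AI+E2 replicate 2 (adjusted p = 0.498).

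AI+E2 against VEH, which shares its arrays with the comparisons above, asked whether E2 given with AI left the levels of VEH CL. Insig1, Srebf2 and Scap were higher in AI+E2 CL, 3 of the 5 measured genes, while 13% of all genes were called and 6.11% were called as higher. Insig1 differed by 0.59 (1.5-fold, adjusted p = 0.000105), and its second probe set by 0.83 (adjusted p over all probe sets = 0.000197, with 8.35% of all probe sets called). Srebf2 differed by 0.29 (1.22-fold, adjusted p = 0.00266) and Scap by 0.24 (1.18-fold, adjusted p = 0.0164). The Scap call was lost without VEH replicate 3 (difference 0.21, adjusted p = 0.0665) or without AI+E2 replicate 1 (0.22, adjusted p = 0.0746). Stard4 differed by 0.23 with an interval from 0.04 to 0.42 (adjusted p = 0.112), with all AI+E2 arrays above all VEH arrays. The groups were apart in this direction in 4 of the 5 genes and in 13.6% of all genes. Insig2 differed by -0.22 with an interval from -0.41 to -0.03 (adjusted p = 0.134), and the difference was -0.33 without AI+E2 replicate 3 (adjusted p = 0.018) and -0.11 without AI+E2 replicate 2 (adjusted p = 0.494).

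VEH against Day 12 addressed the change between day 12 and day 16 of pregnancy. Insig1, Srebf2 and Stard4 were lower in VEH CL, 3 of the 5 measured genes, while 10.1% of all genes were called and 3.23% were called as lower. Insig1 averaged 9.98 ± 0.14 in VEH CL and 11.70 ± 0.11 in Day 12 CL (SD, n = 3 each) and fell by 1.72 (3.3-fold, adjusted p = 1.9e-09), at place 10 from the bottom of the order by fold change. A call with a fall of at least 2-fold was found in 0.193% of all genes. The second probe set fell by 1.81 (adjusted p over all probe sets = 5.05e-07, with 5.57% of all probe sets called). Srebf2 fell by 0.54 (1.45-fold, adjusted p = 1.62e-05) and Stard4 by 0.44 (1.35-fold, adjusted p = 0.0047). Scap differed by -0.18 with an interval from -0.31 to -0.05 (adjusted p = 0.0775). Without Day 12 replicate 1 Scap passed the test (-0.23, adjusted p = 0.0356), as it did with quantile normalisation repeated (-0.245, adjusted p = 0.00992). The VEH arrays lay below the Day 12 arrays in 4 of the 5 genes and in 11.8% of all genes. Insig2 differed by -0.01 with an interval from -0.20 to 0.18 (adjusted p = 0.973).

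AI against Day 12 set the inhibited CL of day 16 beside the CL at the start of treatment, and 0 of the 5 measured genes were called by limma, while 7.57% of all genes were. The unadjusted p of limma was 0.014 for Insig1, 0.0118 for Srebf2 and 0.00625 for Stard4. The share of all genes at such unadjusted p was not counted, so these values are not set against it. The methods' t-test called 0 after adjustment. Insig1 differed by 0.22 with an interval from 0.05 to 0.38 (adjusted p = 0.121), although its second probe set was higher in AI CL by 0.50 (adjusted p over all probe sets = 0.0124, with 4.76% of all probe sets called). Srebf2 differed by 0.16 (adjusted p = 0.109) and Stard4 by 0.28 (adjusted p = 0.0715), both with all AI arrays above all Day 12 arrays, as in 9.22% of all genes. Without AI replicate 3, Stard4 differed by 0.39 (adjusted p = 0.00777). Scap differed by 0.07 (adjusted p = 0.599) and Insig2 by -0.03 (adjusted p = 0.937).

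AI+E2 against Day 12 called Insig1 and Srebf2 as lower in AI+E2 CL, 2 of the 5 measured genes, while 12.1% of all genes were called and 4.58% were called as lower. Insig1 fell by 1.14 (2.2-fold, adjusted p = 2.71e-07) and its second probe set by 0.99 (adjusted p over all probe sets = 7.55e-05, with 8.61% of all probe sets called). A call with a fall of at least 2-fold was found in 0.2% of all genes. Srebf2 fell by 0.25 (1.19-fold, adjusted p = 0.00709). Stard4 differed by -0.21 (adjusted p = 0.154), Scap by 0.06 (adjusted p = 0.609) and Insig2 by -0.23 (adjusted p = 0.117). The Insig2 difference was -0.33 without AI+E2 replicate 3 (adjusted p = 0.0172) and -0.12 without AI+E2 replicate 2 (adjusted p = 0.384). With quantile normalisation repeated it was -0.263 (adjusted p = 0.0448). The AI+E2 arrays lay below the Day 12 arrays for Insig1, Srebf2 and Stard4, and in 16.3% of all genes.

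**Figure D2:**
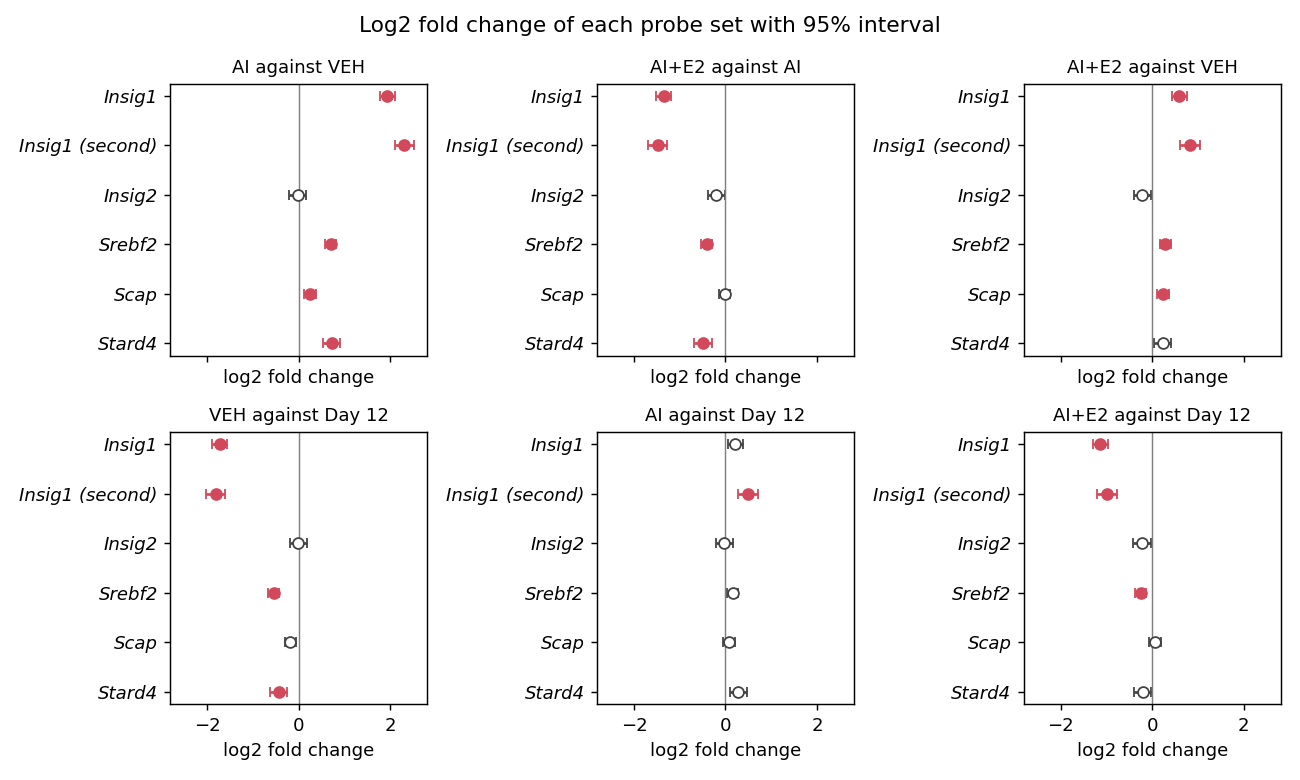
Log2 fold change (x axis, first group minus second) of the 6 probe sets in the 6 comparisons, with 95% confidence intervals; filled points were called at adjusted p below 0.05 and open points were not. Insig1 has the widest range, with 1.94 in AI against VEH and -1.72 in VEH against Day 12 for its first probe set. For its second probe set these are 2.31 and -1.81, and every point of Insig2 is open.

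The Insig genes were set against each other within each array by the difference Insig1 (first probe set) minus Insig2, of which only the change between groups can be read. It lay between 2.79 and 3.22 in AI+E2 CL, between 4.12 and 4.20 in AI CL, between 2.06 and 2.42 in VEH CL and between 3.84 and 4.05 in Day 12 CL. The difference was 1.96 larger in AI than in VEH, 1.15 smaller in AI+E2 than in AI (change -1.15), 0.81 larger in AI+E2 than in VEH and 1.72 smaller in VEH than in Day 12 (change -1.72). None of the groups overlapped, and each exact two-sided permutation test gave p = 0.1, the smallest p that 3 against 3 animals can reach.

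When arrays were followed singly, those with high Insig1 (AI and Day 12) were also those with high Srebf2 and high Stard4. The 3 AI+E2 arrays had nearly the same value of the first Insig1 probe set and differed in Stard4, between 7.57 and 7.81. In the second Insig1 probe set the same arrays lay between 9.28 and 9.49, in the same order as in Stard4. Scap was at the level of AI CL in the AI+E2 arrays, where Insig1 stood between AI and VEH. These are descriptions of 12 arrays in 4 groups, and no test was made of them.

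**Figure D3:**
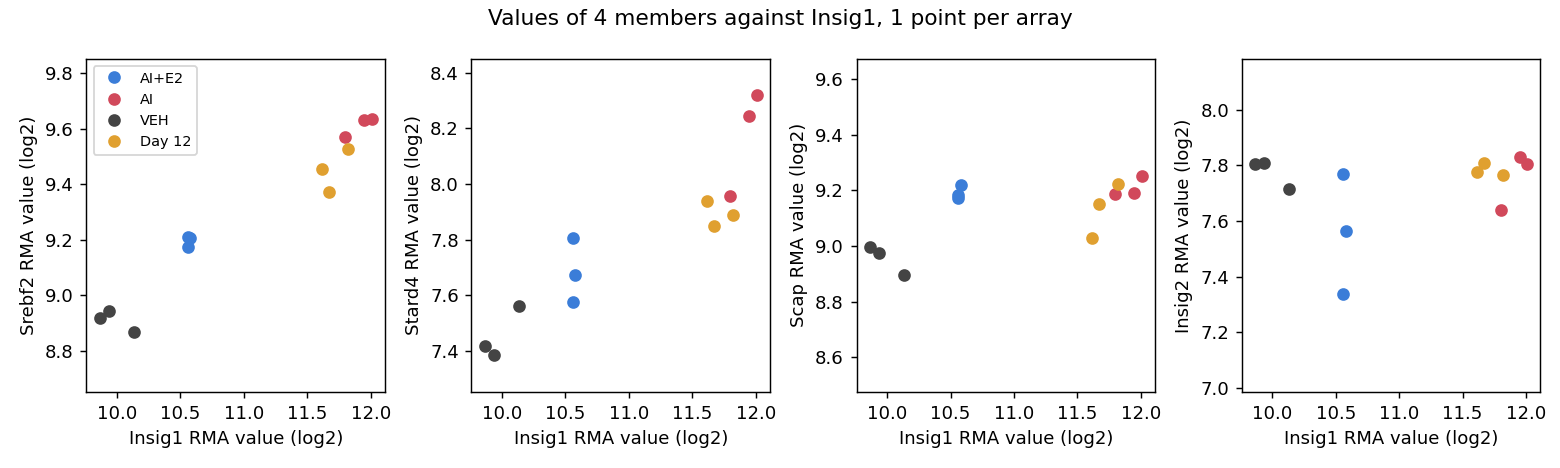
RMA values (log2, y axis) of Srebf2, Stard4, Scap and Insig2 against that of the first Insig1 probe set (log2, x axis), 1 point per array, coloured by group. The 4 groups stand in the same order for Insig1, Srebf2 and Stard4, while Insig2 stays between 7.34 and 7.83.

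The genes whose values over the 12 arrays were most like those of Insig1 by Pearson's r were Tm7sf2 (0.985), Nsdhl (0.979) and Acat2 (0.975), all of them enzymes of cholesterol synthesis. For Srebf2 they were Xpnpep2 (0.995), an aminopeptidase gene, Tm7sf2 (0.986) and Lss (0.984), the lanosterol synthase. For Stard4 they were Vkorc1l1 (0.954), Shisa4 (0.953) and Scd (0.95), the stearoyl-CoA desaturase. Scap had Cbx7 (0.938), Wdsub1 (0.933) and Zbtb20 (0.92), and Insig2 had Ppm1g (0.901), Acp1 (0.893) and Med31 (0.889). These values are descriptive, since the arrays share their groups and the genes were picked as the highest of 14506.

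The genes that surround the sterol sensors were followed in 5 lists. Of the cholesterol synthesis enzymes 17 of 19 were measured, and 16 rose and 1 fell in AI against VEH, with a median difference of 1.93 where that of all genes was 0.01. Over all genes 5.91% were called as higher and 11% as lower there. Cyp51, the lanosterol demethylase, rose by 3.21 (9.27-fold, adjusted p = 1.3e-12), Sqle, the squalene epoxidase, by 2.94 (7.67-fold, adjusted p = 2.53e-12) and Fdps, the farnesyl diphosphate synthase, by 2.01 (4.03-fold, adjusted p = 2.52e-11). The enzyme that fell was Hsd17b7, named after its values were seen, with a difference of -0.21, and its call was lost without VEH replicate 2, VEH replicate 3, AI replicate 1 or AI replicate 3. In AI+E2 against AI 16 of the 17 enzymes fell (median -1.04), and in VEH against Day 12 15 of 17 fell (median -1.38). The shares of all genes called as lower there were 4.13% and 3.23%. In AI+E2 against VEH 13 were higher and 2 lower (Mvk by -0.30 and Fdft1 by -0.39, named after their values were seen), with a median of 0.87. Of all genes 6.11% were called as higher there, and 13% in either direction. The count of 2 was 1 without VEH replicate 1, VEH replicate 3, AI+E2 replicate 1 or AI+E2 replicate 2, and 0 with the methods' t-test.

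Of the fatty acid synthesis genes all 14 listed were measured, and 10 rose and 1 fell in AI against VEH (median 0.47, or 0.77 without the 50% of genes of lowest signal). Over all genes 5.91% were called as higher and 11% as lower. Acss2, the acetyl-CoA synthetase of the cytosol, rose by 2.82 (adjusted p = 2.52e-11), Scd by 2.60 (adjusted p = 2.95e-08) and Acly, the ATP citrate lyase, by 1.82 (adjusted p = 1.35e-10). In AI+E2 against AI 6 fell and 0 rose, with 4.13% of all genes called as lower. In VEH against Day 12 8 fell and 1 rose, with 3.23% of all genes called as lower and 10.1% in either direction. The exception was Gpam, an acyltransferase of glycerolipid synthesis, named after its values were seen, which fell by 0.55 in AI against VEH (adjusted p = 0.000715) and rose by 0.47 in VEH against Day 12 (adjusted p = 0.00521). Acss2 fell by 1.05 in AI+E2 against AI (adjusted p = 2.58e-06) and fell by 2.098 in VEH against Day 12 (adjusted p = 2.13e-09).

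The INSIG and SREBP processing partners are a list of proteases, ubiquitin ligases and other proteins, not all of them specific to sterol sensing, and 10 of 12 were measured. In AI against VEH 4 fell, 0 rose and 6 were not called, with a median of -0.14, while 11% of all genes were called as lower. With the methods' t-test 1 was called as lower. Between AI+E2 and AI 3 rose (Rnf145, Mbtps1 and Mbtps2) and 2 fell (Pgrmc1 by -0.28 and Aup1 by -0.28, named after their values were seen). In VEH against Day 12 2 rose and 1 fell. By these limma calls the list did not move in 1 direction. Over all genes 12.8% and 10.1% were called in these comparisons. The 3 that rose in AI+E2 against AI were 1 with the replicate block. In VEH against Day 12 the 2 that rose were 1 without Day 12 replicate 1, VEH replicate 1 or VEH replicate 2. The 1 that fell there was 0 with the compared groups alone and 2 with quantile normalisation repeated. With the methods' t-test 0 rose and 0 fell in both comparisons. Rnf145, a ubiquitin ligase gene of the sterol response, averaged 8.58 in AI CL and 9.28 in VEH CL and fell by 0.70 (adjusted p = 3.52e-06). It rose by 0.41 in AI+E2 against AI (adjusted p = 0.000767) and by 0.67 in VEH against Day 12 (adjusted p = 1.62e-05), opposite to Insig1 in each. With the methods' t-test both of these rises of Rnf145 lost their call (adjusted p = 0.0627 and 0.0754). Syvn1, the ligase of protein quality control in the endoplasmic reticulum, fell by 0.58 in AI against VEH (adjusted p = 5.59e-05), and in AI+E2 against AI its difference was -0.20 (adjusted p = 0.102). Mbtps1, the first of the proteases that release SREBP, fell by 0.47 in AI against VEH (adjusted p = 0.000173). The fourth gene that fell was the other protease gene, Mbtps2, by -0.22 (adjusted p = 0.0436), named after its values were seen. In AI+E2 against AI Mbtps1 was 0.25 higher (adjusted p = 0.0296), a call that was lost without AI replicate 1 or 3 or AI+E2 replicate 1 or 3 (differences of 0.21 to 0.23, adjusted p = 0.0944 to 0.144), with the replicate block (adjusted p = 0.0536), over all probe sets (adjusted p = 0.0523) and with the methods' t-test (adjusted p = 0.126).

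The LXR receptors are nuclear receptors for oxysterols, and all 8 listed receptors and targets were measured. In AI against VEH 2 fell and 0 rose, where 11% of all genes were called as lower, with a median of -0.15 (-0.25 without the 50% of genes of lowest signal). Abca1, the cholesterol efflux transporter, averaged 8.36 in AI CL and 9.15 in VEH CL and fell by 0.80 (adjusted p = 1.47e-05). It rose by 0.64 in AI+E2 against AI (adjusted p = 0.000177) and by 0.76 in VEH against Day 12 (adjusted p = 6.45e-05). Lpcat3, a phospholipid acyltransferase, fell by 0.30 in AI against VEH (adjusted p = 0.00217), and the receptor gene Nr1h2 differed by 0.22 (adjusted p = 0.133). Without VEH replicate 1, Nr1h2 differed by 0.33 (adjusted p = 0.0216).

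Of the cholesterol uptake and movement genes 11 of 13 were measured, and 3 rose and 1 fell in AI against VEH (median 0.07). Over all genes 5.91% were called as higher and 11% as lower. Soat1, which esterifies cholesterol for storage, rose by 0.57 (adjusted p = 1.66e-05) and Scarb1, the receptor for high-density lipoprotein, by 0.30 (adjusted p = 0.00177). The other gene that rose was Star, the mitochondrial cholesterol carrier, by 0.21 (adjusted p = 0.0107), named after its values were seen. Npc1, which moves cholesterol out of lysosomes, fell by 0.59 (adjusted p = 0.000669). In AI+E2 against AI none of these 3 was called by limma, with differences of 0.03 for Soat1, -0.13 for Scarb1 and 0.12 for Npc1 (adjusted p = 0.83, 0.168 and 0.511). Others of the list were called there, named after their values were seen, where 12.8% of all genes were called. Lipa, the lysosomal acid lipase, differed by 0.41 (adjusted p = 0.00145), Tspo by 0.39 (adjusted p = 0.0292) and Stard3 by -0.36 (adjusted p = 0.00124). The count of 2 higher was 1 with the replicate block, over all probe sets and without any 1 of the AI or AI+E2 arrays other than AI replicate 3.

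**Figure D4:**
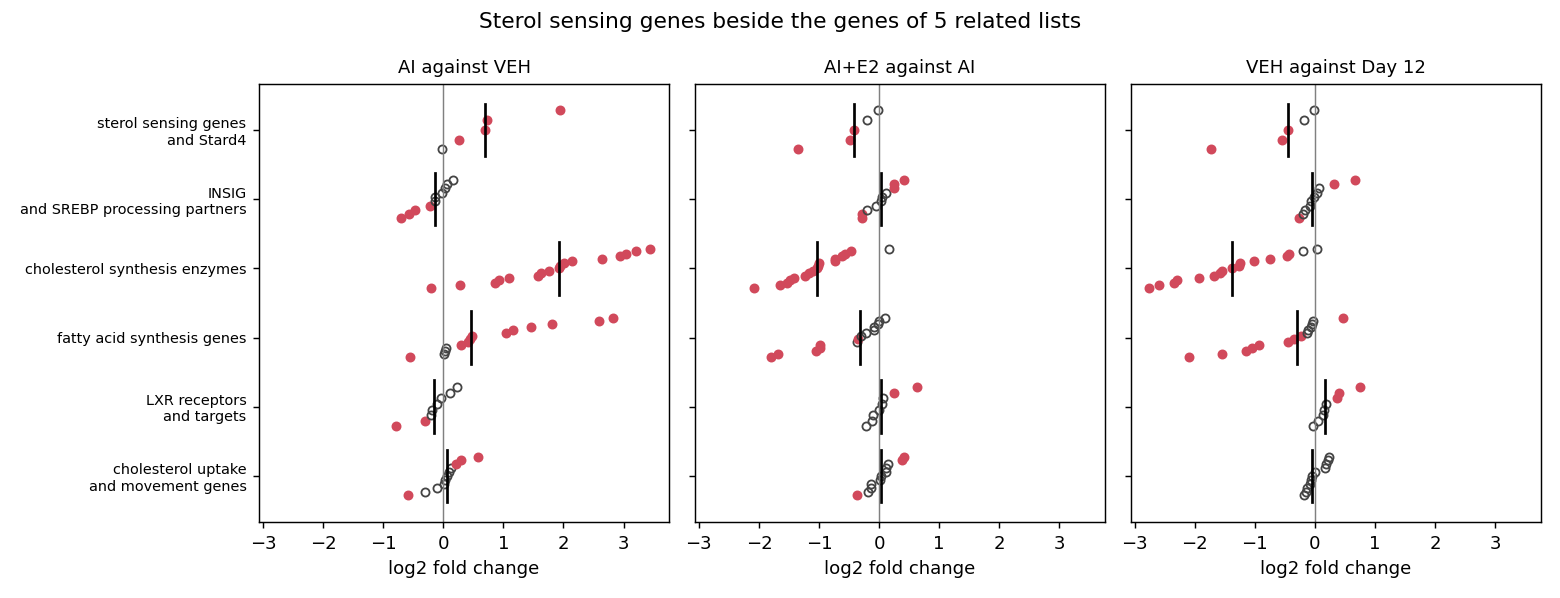
Log2 fold change (x axis, first group minus second) of each gene of the sterol sensing genes with Stard4 and of 5 related lists, in AI against VEH, AI+E2 against AI and VEH against Day 12. Filled points were called at adjusted p below 0.05, open points were not, and vertical bars are medians. The cholesterol synthesis enzymes have medians of 1.93, -1.04 and -1.38.

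The arrays were of bulk tissue, in which fewer cells of a type and less RNA per cell cannot be told apart. Of 9 luteal cell markers 6 were measured, with a log2 summed level of 14.83 to 14.87 in AI+E2 CL, 14.85 to 14.93 in AI CL, 14.69 to 14.75 in VEH CL and 14.73 to 14.76 in Day 12 CL. In AI against VEH 3 luteal markers rose and 1 fell (5.91% of all genes higher, 11% lower). Those that rose were Scarb1 (0.30), Star (0.21) and Cyp11a1 (0.21), and Prlr fell (-0.31), named after their values were seen. Scarb1 and Star are also in the list of cholesterol uptake and movement genes, so the marker sum is not independent of that list. The AI sums lay above the VEH sums, as did Insig1, and the part of these markers was not tested. Markers of endothelium, 9 of 10 measured, moved opposite to Insig1 in some comparisons. In AI against VEH 7 of them fell (11% of all genes lower), and in VEH against Day 12 7 of them rose (10.1% of all genes called in either direction). Their log2 summed level was 11.76 to 11.85 in AI+E2 CL, 11.64 to 11.86 in AI CL, 12.15 to 12.26 in VEH CL and 11.73 to 11.91 in Day 12 CL, and their part in the results was not tested. In AI+E2 against AI 0 of the 9 endothelial markers were called by limma, where 12.8% of all genes were called. Their differences lay between -0.15 and 0.23. Red blood cell markers, 3 of 5 measured, had a log2 summed level of 9.63 to 9.79 in AI+E2 CL, 10.40 to 10.73 in AI CL, 10.53 to 11.38 in VEH CL and 9.85 to 10.52 in Day 12 CL. Of the 3 only Hbb, a globin gene, was called in AI+E2 against AI (fell by 1.04, adjusted p = 0.00353), and their part in the results was not tested. All 10 macrophage markers were measured and 4 rose in AI against VEH, where 5.91% of all genes were called as higher. Their log2 summed level was 12.02 to 12.08 in AI+E2 CL, 12.08 to 12.18 in AI CL, 11.90 to 11.94 in VEH CL and 11.79 to 11.86 in Day 12 CL, and their part was not tested either. Of 7 smooth muscle and pericyte markers 5 rose in VEH against Day 12 and 2 fell in AI against VEH. Over all genes 10.1% were called in either direction in VEH against Day 12, and 11% were called as lower in AI against VEH.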

How the data were processed

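CL RNA of 12 rats was hybridised to Affymetrix Rat Gene 1.0 ST arrays, 1 rat per array. The values the authors deposited are log2 values of 29214 probe sets, made by RMA in R 2.12.2 as their methods and processing notes state. RMA sets the distributions of arrays equal and can compress large differences. The set of arrays normalised in 1 run is not given in the sources. Array medians lay between 6.51 and 6.56, 0 values were missing and 0 pairs of arrays were identical. The number of arrays limits the precision.

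A single gene symbol was given by the platform annotation for 15310 probe sets, which were named. The 323 with more than 1 symbol and the 13581 without a symbol were not. Of these, 15279 matched the RefSeq gene table, which changed 0 symbols. For 527 genes with more than 1 probe set the one of highest mean was tested. No filter on dim probe sets was used. Differences came from 4 group means fitted by limma 3.58.1 under R 4.3.3, with moderated variances on 8 residual and 6.66 prior degrees of freedom and Benjamini-Hochberg adjustment over 14506 genes, or over all probe sets for the second probe set of Insig1. The fit was tested on simulated data.

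The genes and lists were chosen with earlier results of these data known. Named were the member genes, the 3 genes of each list with the smallest p in AI against VEH, and the 3 genes most like each member by Pearson's r. Alternatives left out each array in turn or changed the filter, probe set choice, normalisation, spread model, block and test. The replicate numbers come from the sample titles. Among 18 same-numbered pairs across groups the correlation of deviations from the group means was -0.49 to 0.34, with 4 over 0.1, so the numbers were not taken to pair animals.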

Additional observations from a re-analysis of the deposited data

How the results depend on the processing

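Of 480 fold changes of the 5 genes under alternatives, 453 kept their direction and their side of the threshold, 9 lost a call, 10 gained one and 8 changed sign, none of the 8 called in either setting. Those were Scap in AI+E2 against AI (0.011 with median centring, -0.032 to 0.002 leaving out single arrays) and Insig2 in VEH against Day 12 (0.013 with median centring, -0.024 to 0.024 leaving out single arrays), in AI against VEH (0.022 with quantile normalisation repeated, -0.053 to 0.041 leaving out single arrays) and in AI against Day 12 (-0.061 to 0.033). Of the named list genes, Soat1 in AI+E2 against AI was -0.002 with quantile normalisation repeated. In AI against Day 12, 1 gene was called without the 50% of genes of lowest signal (Stard4, adjusted p = 0.0468), with the mean of probe sets (Insig1, adjusted p = 0.0142) or with quantile normalisation repeated (Srebf2, adjusted p = 0.0305), a different gene each time, and 0 to 1 leaving out single arrays (Stard4 without AI replicate 3). The methods' t-test called 2 genes in AI against VEH, where Scap (adjusted p = 0.0514) and Stard4 (adjusted p = 0.0662) were lost, 1 in VEH against Day 12 and 1 in AI+E2 against Day 12. It also lost Stard4 in AI+E2 against AI (adjusted p = 0.137) and Scap in AI+E2 against VEH (adjusted p = 0.0526). Over all genes it called 663 in AI against VEH, 758 in AI+E2 against AI, 564 in AI+E2 against VEH, 57 in VEH against Day 12, 45 in AI against Day 12 and 362 in AI+E2 against Day 12, where limma called 2458, 1854, 1887, 1471, 1098 and 1755. Fitted with its groups alone VEH against Day 12 had 910 calls, and without AI replicate 1 AI against Day 12 had 654. Without AI+E2 replicate 1 there were 1252 in AI+E2 against VEH and 1123 in AI+E2 against Day 12. With the replicate number as a block, 4 genes were called in AI against VEH, 3 in AI+E2 against AI, 3 in AI+E2 against VEH, 3 in VEH against Day 12, 0 in AI against Day 12 and 2 in AI+E2 against Day 12, and no call of the 5 genes changed. Among the named list genes Mbtps1 in AI+E2 against AI lost its call with the block (adjusted p = 0.0536). Of 720 fold changes of the named list genes under alternatives, 25 lost a call, 5 gained one and 1 changed sign. In AI against VEH the methods' t-test lost Mbtps1 (adjusted p = 0.0563), Syvn1 (0.0576), Lpcat3 (0.0742), Scarb1 (0.0774) and Npc1 (0.11). In AI+E2 against AI it lost Mbtps1 (0.126), Rnf145 (0.0627) and Lpcat3 (0.1). In VEH against Day 12 it lost Rnf145 (0.0754), Syvn1 (0.217), Scd (0.154), Abca1 (0.133) and Lpcat3 (0.0881). Counts of the small lists moved by over 1.5 times without single arrays, as for the processing partners higher in AI+E2 against AI (3, or 1 without AI replicate 1 or 3 or AI+E2 replicate 1 or 3). The unequal change of Insig1 and Insig2 kept its direction under every alternative run. The same comparison of Srebf2 with Srebf1 was not run, because Srebf1 had no probe set of its own.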
